A study of Homo sapiens with 20 samples.

Results

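Vimentin and 6 keratins are described here across 20 RNA-seq libraries of a human liver cancer line. The 7 genes were chosen by symbol as the vimentin gene VIM and the epithelial keratin genes KRT7, KRT8, KRT18, KRT19, KRT23 and KRT80, and all 7 were present among the 26038 gene symbols of the table.

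The cells were labelled MHCC-97H, a hepatocellular carcinoma line, and polyA RNA was sequenced in 4 groups of 5 libraries. R-47 and R-37 were wild-type cells held for 15 minutes in a water bath at 47 °C or at 37 °C and then kept for 24 hours in an incubator. NFS1 and NC were cells of a second experiment, all held at 47 °C for the same times. The NFS1 group was labelled as a knockdown of NFS1, a mitochondrial cysteine desulfurase, made with shRNA according to the design text, and NC was labelled wild-type. Every group but R-37 was thus heated, and an NFS1 knockdown without heat was not analysed here. The labels name no shRNA sequence and do not say whether the knockdown was a clone or a pool. Whether the 5 libraries of each group were grown as separate cultures is not stated, and the p-values reflect the scatter among these libraries, part or all of which may be technical.

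Intermediate filaments are the rope-like part of the cytoskeleton. Vimentin is a type III protein that forms filaments with itself and is the usual filament of mesenchymal cells, fibroblasts and many invasive carcinoma cells. Keratins are obligate heteropolymers, so each filament needs a type II (basic) and a type I (acidic) partner. KRT8 with KRT18 is the pair of the normal hepatocyte, whereas KRT7 and KRT19 are the keratins of bile duct epithelium, and KRT19 in liver cancer has been associated with a progenitor-like state.

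The 2 filament classes share the end of their central rod, the helix termination motif, where filament subunits overlap when they assemble. The 27 coding bases of that stretch are shown for all 7 genes because it is where VIM and the keratins are most plainly related. They were read from GENCODE release 29 transcripts on GRCh38, run 5′ to 3′ on the coding strand, and capitals mark the 12 bases that are the same in all 7.
VIM: ACcTACaGgaagCTgcTgGAaGgcgag
KRT8: ACcTACaGgaagCTgcTgGAgGgcgag
KRT7: ACcTACcGcaagCTgcTgGAgGgcgag
KRT80: ACcTACaGgaagCTggTgGAgGgcgag
KRT18: ACcTACcGccgcCTgcTgGAaGatggc
KRT19: ACcTACcGcagcCTgcTcGAgGgacag
KRT23: ACgTACcGacggCTccTgGAgGgagag

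The VIM and KRT8 stretches had 26 of 27 bases in common, as did KRT8 and KRT80, and the least alike pair, KRT18 and KRT80, had 16. VIM's stretch lies in exon 6 of 9 of its principal transcript, KRT8's in exon 7 of 9 and KRT19's in exon 6 of 6. The KRT80 stretch was taken as the in-frame window most like that of KRT8, because the amino acid pattern used for the other genes had no match in it. Over the whole coding sequences the longest run shared by any pair was 65 bases, between KRT8 and KRT80, and the longest shared by VIM and KRT8 was 23.

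By RefSeq positions on GRCh38.p14, VIM lies on chromosome 10 (17228241 to 17237593). The type II genes KRT80 (52168996 to 52192014), KRT7 (52233243 to 52255853) and KRT8 (52897191 to 52949860) lie on chromosome 12, together with KRT18 (52948855 to 52952906), the type I gene that sits beside its partner. KRT23 (40922700 to 40937646) and KRT19 (41523617 to 41528308) lie in the type I cluster on chromosome 17. The annotated ends of KRT8 and KRT18 overlap on opposite strands, VIM overlaps the antisense gene VIM-AS1 and KRT7 contains KRT7-AS. The strand setting of the counting is not given in the sources used here, so reads of overlapping genes cannot be told apart.

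Levels below are TMM-scaled FPKM, which are depth-scaled counts (CPM) with TMM scaling over all 20 libraries, divided by gene length in kilobases, so that genes and groups can be set side by side. Fold changes and adjusted p-values are from edgeR's quasi-likelihood test on the counts, fitted over all tested genes of the 2 groups compared, with Benjamini-Hochberg adjustment and a threshold of 0.05. A gene is said to rise or fall only where it passed that test.

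Total counts per library ran between 32219946 and 39689939. The knocked-down gene itself averaged 22.1 ± 0.973 in NFS1 and 24.2 ± 0.629 in NC (SD, n = 5 each). The difference of -0.11 on the log2 scale did not pass the test (SE 0.05, adjusted p = 0.114, edgeR). Its 95% interval, which is not adjusted for the number of genes tested, was -0.22 to -0.0039. The ranges of the 2 groups did not overlap, as for 21.0% of all tested genes. NFS1 stands below for the libraries with that label. NFS1 library 4 stood apart from the rest of its group over all genes, with a mean chi-square per gene of 57.3 to 72.5 against each of the others, which had 3.53 to 17.5 among themselves. Pairs of libraries of the R-37 group reached 54.6, between libraries 1 and 5. The hepatocyte marker list summed to 197 to 208 CPM in NFS1 libraries, 231 to 242 in NC, 151 to 163 in R-47 and 184 to 206 in R-37. GPC3, TTR, APOA1 and CPS1 were under 1 CPM on average in every group, and ALB and SERPINA1 were under 1 CPM in NFS1 and NC, which left 6 of 12 markers at 1 CPM or more in those groups and 8 of 12 in R-47 and R-37. Of the marker lists of other cell types, the leukocyte genes PTPRC and CD3E, the endothelial genes CDH5, TIE1 and ERG, and the fibroblast and stellate genes COL1A2, COL3A1, PDGFRA, PDGFRB and DES were under 1 CPM in every group. Other genes of the same lists were well above that. In TMM-scaled FPKM, CD68 averaged 80.1 in NFS1, 70.5 in NC, 94.9 in R-47 and 46.2 in R-37, LUM averaged 6.62 to 12.9, KDR 3.33 to 7.55, PECAM1 1.71 to 7.45 and CD79A 1.36 to 6.10 over the groups.

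**Figure D1:**
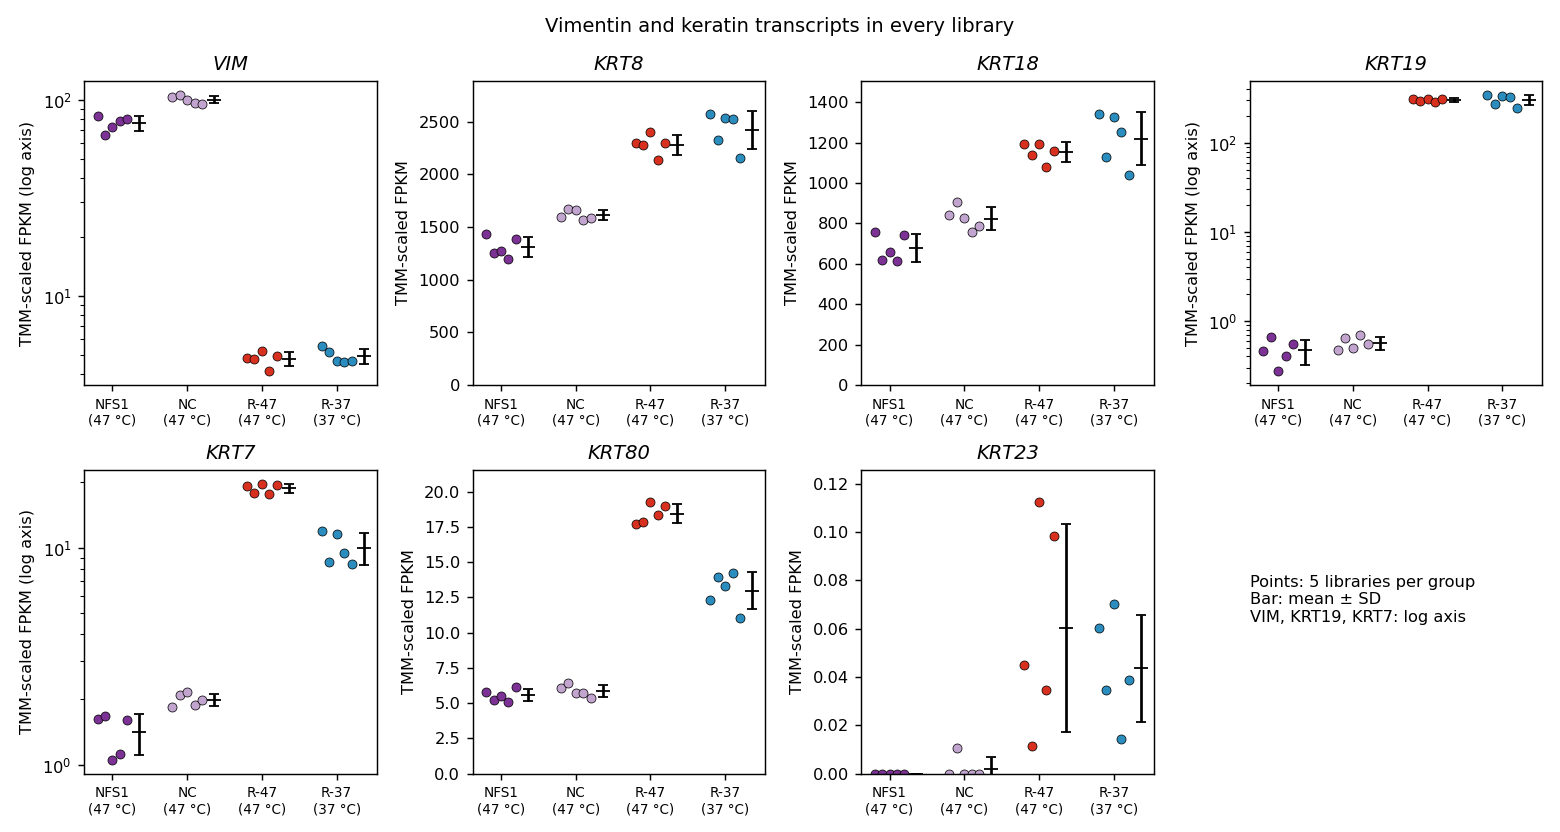
TMM-scaled FPKM (vertical axes; log axes for VIM, KRT19 and KRT7) of the 7 genes in each of the 5 libraries of the NFS1, NC, R-47 and R-37 groups (points), with the mean ± SD beside them. VIM is high in NFS1 and NC (66.6 to 106) and low in R-47 and R-37 (4.13 to 5.57), KRT19 is the reverse (means of 0.469 and 0.571 against 304 and 306), and KRT8 and KRT18 are abundant in all 4 groups.

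KRT8 and KRT18 were the dominant filament transcripts of these cells in all 4 groups. KRT8, the type II partner of the simple epithelial pair, ranked 23rd by level among the 26038 genes in NFS1, 19th in NC, 15th in R-47 and 15th in R-37. KRT18, its type I partner, ranked 62nd, 51st, 36th and 38th in the same groups. VIM ranked 699th in NFS1 and 552nd in NC, but 7515th in R-47 and 7456th in R-37. KRT19 showed the opposite placing, at 12619th in NFS1 and 12228th in NC, against 169th in R-47 and 183rd in R-37.

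Heating wild-type cells raised KRT7 and KRT80, and none of the other 4 genes tested. This comparison asked what a sublethal bath, as at the edge of an incomplete ablation, left in the transcriptome 24 hours later. Of the 7 genes, 2 rose, 0 fell, 4 were tested and not called, and KRT23 was too low to test. Over all 14344 tested genes, 11.9% rose and 13.2% fell, 25.1% in all.

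KRT7, a type II keratin of ductal and glandular epithelia, had 19.1, 17.9, 19.7, 17.7 and 19.5 in the R-47 libraries, against 11.9, 8.54, 11.5, 9.45 and 8.39 in the R-37 libraries. Every heated library lay above every unheated one. The log2 fold change was 0.92 (SE 0.09, 1.89-fold, adjusted p = 4.95e-06, edgeR), which placed KRT7 359th from the highest of the tested genes.

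KRT80, a type II keratin found near cell margins and desmosomes, had 17.7, 17.8, 19.2, 18.4 and 19.0 in R-47, against 12.3, 13.9, 13.3, 14.3 and 11.1 in R-37. Here too the ranges were apart. Its log2 fold change was 0.51 (SE 0.06, adjusted p = 5.12e-05, edgeR). These were the 2 genes of the 7 whose ranges did not overlap between the groups, where 18.0% of all tested genes had ranges that did not.

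VIM stayed at a low level with and without heat. It had 4.84, 4.75, 5.22, 4.13 and 4.92 in R-47, against 5.57, 5.14, 4.65, 4.59 and 4.64 in R-37, and the ranges overlapped. The log2 fold change was -0.04 with a 95% interval of -0.22 to 0.14 (adjusted p = 0.766, edgeR), and its sign depended on the scaling: with library size alone it was 0.04.

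The abundant pair was close to level. KRT8 averaged 2281 ± 95.8 in R-47 and 2424 ± 179 in R-37 (SD, n = 5 each), with a log2 fold change of -0.08 and a 95% interval of -0.19 to 0.02 (adjusted p = 0.226, edgeR). KRT18 averaged 1152 ± 48.1 in R-47 and 1218 ± 131 in R-37, with an interval of -0.21 to 0.06 (adjusted p = 0.398, edgeR). KRT19 averaged 304 ± 13.3 in R-47 and 306 ± 40.9 in R-37, with an interval of -0.16 to 0.16 (adjusted p = 0.981, edgeR). The call for KRT8 depended on 1 library, since without R-37 library 5 its log2 fold change was -0.11 (adjusted p = 0.0424, edgeR). With offsets for gene length and GC content, KRT8, KRT18 and KRT19 all fell, at -0.21, -0.21 and -0.21.

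KRT23, a type I keratin described in mouse as a stress-inducible keratin of injured liver, was near the limit of detection. It had 4, 1, 10, 3 and 8 counts in the R-47 libraries, against 5, 3, 6, 1 and 3 in the R-37 libraries. The groups overlapped, and the depth-corrected ratio of the summed counts, 26 against 18, was 1.42 with an exact 95% interval of 0.75 to 2.75 that covers counting error only.

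**Figure D2:**
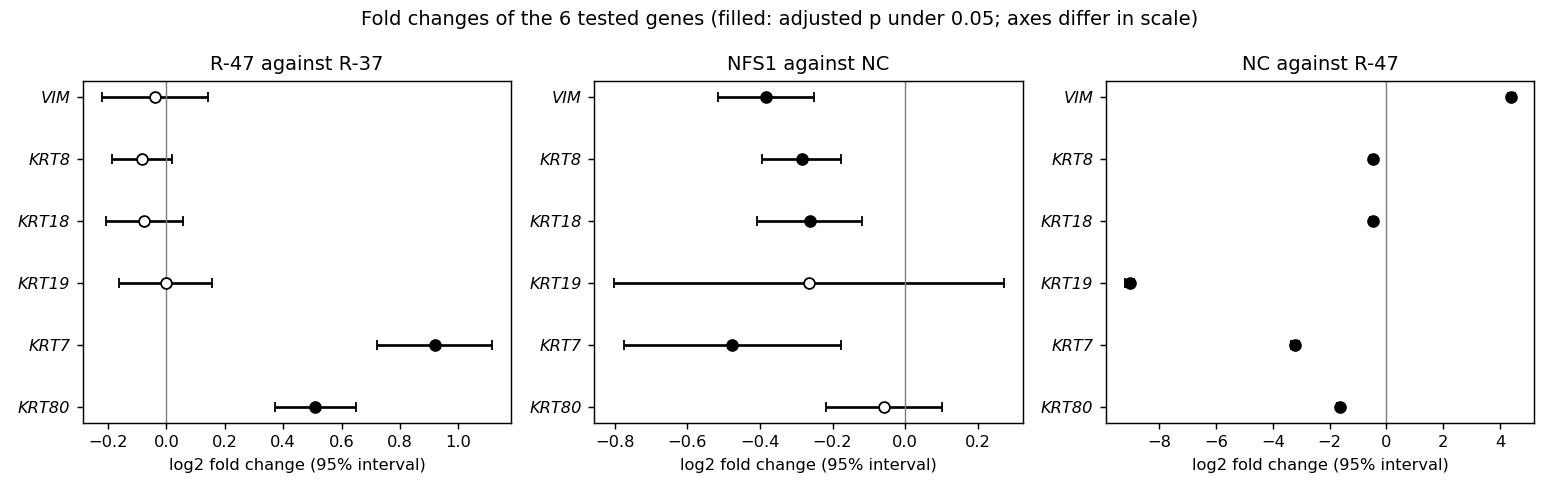
Log2 fold changes (horizontal axes, which differ in scale) with 95% intervals of the 6 tested genes in the 3 comparisons, filled where the adjusted p is under 0.05. KRT7 (0.92) and KRT80 (0.51) are the filled points of R-47 against R-37, 4 genes lie below 0 and are filled in NFS1 against NC, and VIM (4.40) and KRT19 (-9.04) are the outermost points of NC against R-47.

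In the heated cells labelled as NFS1 knockdown, VIM and 3 keratins fell relative to NC. By its labels the comparison set knockdown cells against wild-type cells after heat, although NFS1 itself did not pass the test. Of the 7 genes, 0 rose and 4 fell, VIM, KRT7, KRT8 and KRT18, whereas KRT19 and KRT80 were not called and KRT23 could not be tested. Over all 15086 tested genes, 15.7% rose and 12.5% fell, 28.1% in all. In bulk RNA, fewer cells with a transcript and less of it per cell cannot be told apart.

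VIM had 82.5, 66.6, 72.8, 78.5 and 80.1 in the NFS1 libraries, against 103.7, 106, 100.4, 97.0 and 95.3 in the NC libraries. All NFS1 libraries lay below all NC libraries. The log2 fold change was -0.38 (SE 0.06, 0.766-fold, adjusted p = 0.000397, edgeR).

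KRT8 had 1438, 1255, 1275, 1198 and 1389 in NFS1, against 1595, 1670, 1658, 1571 and 1587 in NC, again without overlap. Its log2 fold change was -0.28 (SE 0.05, 0.821-fold, adjusted p = 0.000861, edgeR). KRT18 had 757.9, 620.0, 657, 613 and 742 in NFS1, against 840.3, 904, 827, 757.5 and 788 in NC. The highest NFS1 library just passed the lowest NC library, and the log2 fold change was -0.26 (SE 0.07, adjusted p = 0.0103, edgeR).

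KRT7 was low in both groups, with 1.62, 1.67, 1.05, 1.117 and 1.61 in NFS1, against 1.84, 2.09, 2.15, 1.88 and 1.98 in NC. The ranges were apart, with libraries 3 and 4 lowest among NFS1, and the log2 fold change was -0.48 (SE 0.14, 0.719-fold, adjusted p = 0.0202, edgeR). VIM, KRT7 and KRT8 were the 3 genes of the 7 with ranges apart, where 21.0% of all tested genes had ranges apart.

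Without NC library 1 and NFS1 library 4, a setting added after seeing the data, the same 4 genes were called, with VIM at -0.39, KRT7 at -0.43, KRT8 at -0.26 and KRT18 at -0.22. The calls for KRT7 and KRT18 were near the threshold. Without NFS1 library 3 the adjusted p of KRT7 was 0.0502, and without NFS1 libraries 2 and 3, also added after seeing the data, that of KRT18 was 0.0804 (edgeR).

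KRT80 averaged 5.56 ± 0.435 in NFS1 and 5.86 ± 0.422 in NC (SD, n = 5 each), with a log2 fold change of -0.06 and a 95% interval of -0.22 to 0.10 (adjusted p = 0.593, edgeR). KRT19 averaged 0.469 ± 0.147 in NFS1 and 0.571 ± 0.0941 in NC, with an interval of -0.80 to 0.27 (adjusted p = 0.46, edgeR). KRT23 had 0 counts in all 5 NFS1 libraries and 1 count in NC library 2.

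The fall of VIM ran against the genes around it. Of its 50 nearest tested neighbours on chromosome 10, 25 on each side, 44 rose in NFS1 relative to NC and 0 fell, with a median log2 fold change of 0.59, where the median over all tested genes was 0.02. The rise covered the chromosome, with 88 of 139 tested genes higher and 3 lower on the short arm, and 287 of 425 higher and 7 lower on the long arm. VIM-AS1, the antisense gene whose annotation overlaps the start of VIM, averaged 8.74 ± 0.746 in NFS1 and 5.72 ± 0.456 in NC, and rose, at 0.63 on the log2 scale (SE 0.08, adjusted p = 8.23e-05, edgeR). CUBN and TRDMT1, the next tested genes on that side, had 1.43 and 0.83. The keratin loci showed no such shift: the 50 neighbours of KRT8 had a median of -0.02 and those of KRT19 a median of 0.01.

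**Figure D3:**
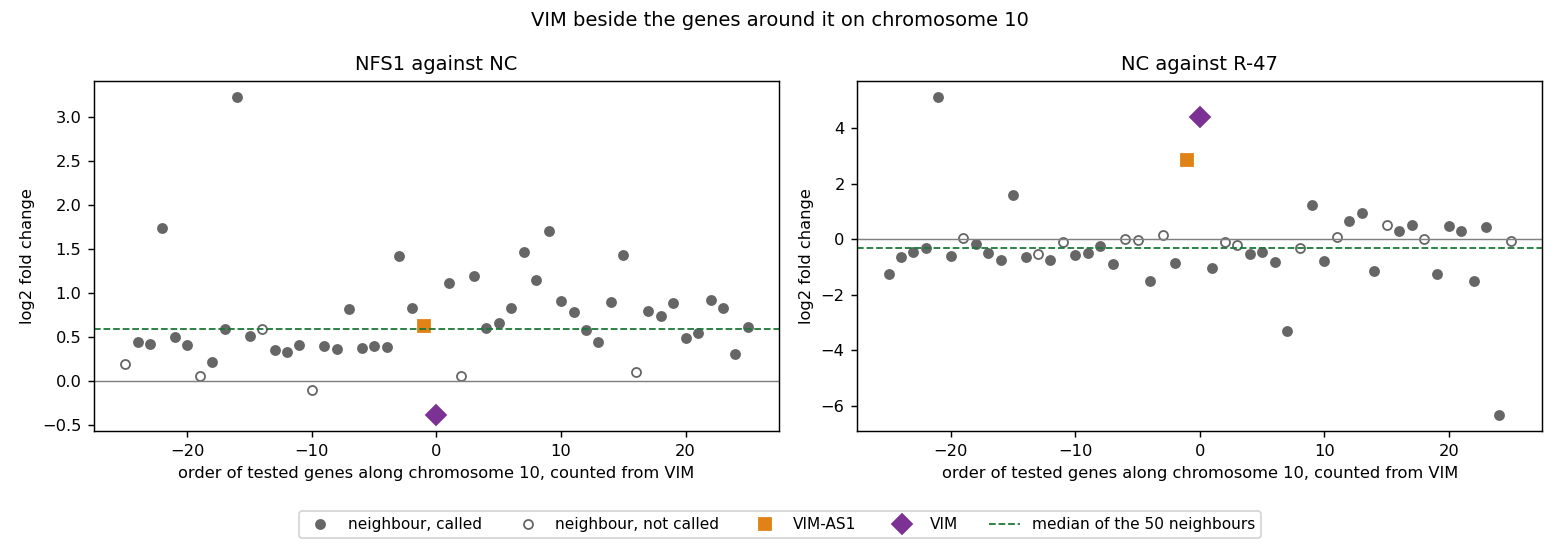
Log2 fold change (vertical axis) of VIM and its 50 nearest tested genes on chromosome 10, in gene order from VIM (horizontal axis), filled where called, with the neighbours' median as a dashed line. In NFS1 against NC, VIM (-0.38) lies under neighbours whose median is 0.59. In NC against R-47, VIM (4.40) and VIM-AS1 (2.86) lie above the neighbours' median of -0.32, and the neighbour CAMK1D (5.11) lies above both.

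Of the 3 comparisons, the largest differences of VIM and the tested keratins lay between the 2 heated groups labelled wild-type. NC and R-47 carry the same line, genotype and bath in their labels and come from different experiments, so whatever else differed between the experiments cannot be told apart from the group. VIM rose and KRT7, KRT8, KRT18, KRT19 and KRT80 fell in NC relative to R-47, and KRT23 was under the filter on low counts. It was called lower where no such filter was used, with an adjusted p of 0.000238 in edgeR, 0.000765 in DESeq2 and 0.0163 in limma on log2(FPKM + 1). The background was wide, with 40.1% of the 15080 tested genes higher and 39.6% lower in NC, 79.7% in all, so the count of called genes among the 7 says little and the sizes are what set some of them apart.

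VIM had 103.7, 106, 100.4, 97.0 and 95.3 in NC, against 4.84, 4.75, 5.22, 4.13 and 4.92 in R-47, a 21.2-fold difference. Its log2 fold change was 4.40 (SE 0.06, adjusted p = 2.53e-23, edgeR), the 122nd highest of the tested genes. VIM-AS1 averaged 5.72 ± 0.456 in NC and 0.793 ± 0.147 in R-47 (SD, n = 5 each) and also rose, with 2.86 on the log2 scale. The 50 neighbours of VIM had a median of -0.32, with 11 higher and 26 lower. Fibroblast and stellate markers summed to 24.96 to 30.6 CPM in NC and 19.5 to 23.5 in R-47, with COL1A2, COL3A1, PDGFRA, PDGFRB and DES under 1 CPM in both. Of the 6 of these 10 markers that were tested, 5 rose in NC and 1 fell, with a median of 0.88. COL1A1 rose with 3.62, DCN with 2.27 and LUM, the most abundant of them, with 0.20. COL3A1 and RGS5 also rose, and LRAT fell with -4.31. The part of these markers in the result was not tested.

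KRT19 was very low in NC. It had 0.473, 0.645, 0.498, 0.691 and 0.548 in NC, against 314, 295, 315, 286 and 312 in R-47. Its log2 fold change was -9.04 (SE 0.08, adjusted p = 2.98e-27, edgeR), with the smallest p of all tested genes in this comparison and the 39th lowest fold change.

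KRT7 averaged 1.99 ± 0.132 in NC and 18.8 ± 0.934 in R-47, and its log2 change was -3.23 (SE 0.07, adjusted p = 1.92e-20, edgeR). KRT80 averaged 5.86 ± 0.422 in NC and 18.4 ± 0.669 in R-47, with -1.65 (SE 0.05, adjusted p = 4.21e-17, edgeR). The hepatocyte pair moved least, with -0.49 for KRT8 (SE 0.04) and -0.48 for KRT18 (SE 0.04). KRT23 had 1 count in all of NC against 26 in R-47, a depth-corrected ratio of 0.04 with an exact 95% interval of 0.000975 to 0.243. All 6 tested genes had ranges that did not overlap between these groups, as 67.3% of all tested genes did not.

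KRT20, the intestinal type I keratin of the same cluster as KRT19, was the most abundant of the keratins outside the 7 that the naming rule gave. It averaged 64.1 ± 8.29 in NC and 505 ± 19.2 in R-47 and fell, at -2.97 on the log2 scale (adjusted p = 5.23e-20, edgeR). KRT15, the nearest tested gene on one side of KRT19, fell with -1.82, and the plakoglobin gene JUP, on the other side, with -1.91. HAP1, between KRT19 and JUP, rose with 3.00, and the 50 neighbours of KRT19 had a median of -0.39.

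Across the 4 groups, the genes fell into 3 orders. VIM ran NC, NFS1, R-37, R-47 downward, and only R-37 and R-47 overlapped. KRT7 ran R-47, R-37, NC, NFS1 with no overlap between neighbours in that order. KRT80 had the same order as KRT7, with NC and NFS1 overlapping. The few counts of KRT23 gave that order too, with R-47 and R-37 overlapping as well as NC and NFS1. KRT8, KRT18 and KRT19 ran R-37, R-47, NC, NFS1. R-37 and R-47 overlapped for all 3 of them, and NC and NFS1 overlapped for KRT18 and KRT19.

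The partners KRT8 and KRT18 kept a near-constant proportion while their levels differed. The ratio of KRT8 to KRT18 averaged 1.94 ± 0.0585 in NFS1, 1.97 ± 0.0927 in NC, 1.98 ± 0.0343 in R-47 and 2.00 ± 0.0777 in R-37 (SD, n = 5 each), and all 20 libraries lay between 1.85 and 2.07. All 4 groups overlapped in this ratio. The summed level of the 3 type II genes over the 3 type I genes averaged 1.95 in NFS1 and 1.98 in NC, against 1.59 in R-47 and 1.61 in R-37.

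Among the type I genes of the 7, the groups differed most in KRT19. It gave 0.0696% of the summed level of KRT18, KRT19 and KRT23 in NFS1 and 0.0697% in NC, against 20.89% in R-47 and 20.04% in R-37. KRT20, a type I keratin outside the 7, was not in that sum. Its level averaged 109 in NFS1, 64.1 in NC, 505 in R-47 and 633 in R-37, so it too differed between the groups. The sum of all 7 genes was 2073 ± 171 in NFS1, 2549 ± 100.3 in NC, 3780 ± 155 in R-47 and 3976 ± 351 in R-37. VIM gave 3.68% of it in NFS1 and 3.94% in NC, against 0.126% in R-47 and 0.124% in R-37. Even where VIM was high, KRT18 had 8.92 ± 0.629 times its level in NFS1 and 8.18 ± 0.258 times in NC, against 242 ± 12.6 in R-47 and 249 ± 29.3 in R-37.

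**Figure D4:**
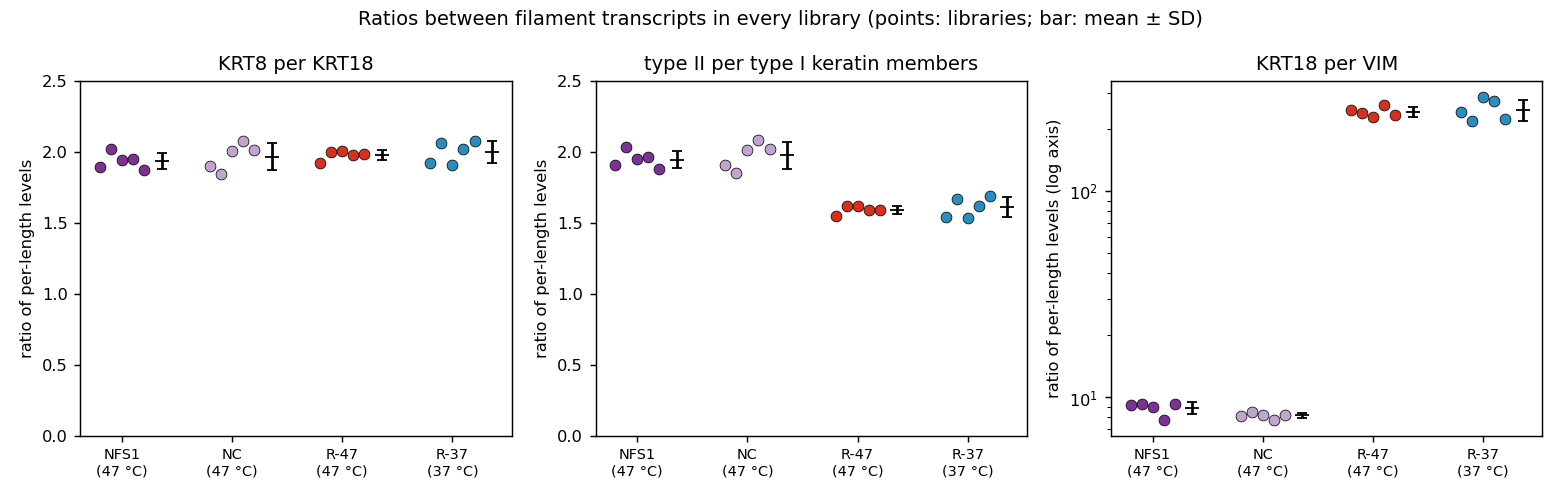
Ratios of per-length levels (vertical axes; log axis on the right) in each of 5 libraries of the NFS1, NC, R-47 and R-37 groups, with the mean ± SD beside the points. KRT8 per KRT18 lies between 1.85 and 2.07 in all libraries, type II per type I is higher in NFS1 and NC than in R-47 and R-37, and KRT18 per VIM is 7.81 to 9.31 in NFS1 and NC and 219.2 to 285.5 in R-47 and R-37.

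Other genes of filament biology were counted from lists, to be read beside the shares over all tested genes. In R-47 against R-37, 11.9% of these rose and 13.2% fell. The shares were 15.7% and 12.5% in NFS1 against NC, and 40.1% and 39.6% in NC against R-47. Of 41 other keratins, 10 could be tested in R-47 against R-37, where 2 rose and 3 fell. Both that rose were KRT86 and KRT81 (adjusted p = 0.0317 and 0.0497, edgeR). They are known as near-identical copies, so their values may be uncertain, which was not measured here. KRT20 was one of those that fell, with 505 ± 19.2 in R-47 and 633 ± 12.9 in R-37 and a log2 fold change of -0.32. Of 10 tested in NFS1 against NC, 2 rose and 0 fell, and KRT20 averaged 109 ± 11.7 in NFS1 and 64.1 ± 8.29 in NC and rose with 0.79. In NC against R-47, 0 of 9 rose and 8 fell, with a median log2 fold change of -1.73 where the median of all tested genes was 0.01. The lowest fold changes there were -3.77 for KRT4 and -2.98 for KRT12.

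A list of 16 genes held other intermediate filament genes and the keratin-binding gene TCHP. Of these, 8 were tested in R-47 against R-37. LMNB1, a nuclear lamin, and NES, the neural progenitor filament nestin, fell with -0.15 and -0.37. Between NFS1 and NC, 1 of 10 rose, TCHP with 0.22, and 0 fell, so no filament gene of the list was called. In NC against R-47, 4 of 10 rose and 6 fell, including TCHP with -0.68. Of those that fell, the lamin gene LMNA averaged 194 ± 12.1 in NC and 410.5 ± 22.4 in R-47, with -1.07.

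Linkers and desmosome genes tie keratin filaments to the cell margin. The list of 22 also held others, such as MACF1, FAM83H and CSNK1A1, and 18 of the 22 were tested. In R-47 against R-37, 5 rose, among them the plakin genes EPPK1 and EVPL with 0.72 and 0.30, and 4 fell, among them DSP, the desmoplakin gene, with -0.21. NFS1 libraries had 5 that rose relative to NC, MACF1 and FAM83H among them, and 0 that fell. DSP averaged 21.2 ± 2.40 in NFS1 and 16.3 ± 0.807 in NC, with 0.40. Relative to R-47, 8 rose and 8 fell in NC, where 79.7% of all tested genes were called. DSC2 was at 1.92, PKP3 at 0.54, DSP at -1.60 and JUP at -1.91.

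A list of 22 genes held kinases, phosphatases and chaperones that act on filaments, and other genes, among them SIRT2 and TRIM16. All 22 were tested. In R-47 against R-37, 2 rose and 5 fell. CRYAB, a small heat shock protein that binds intermediate filaments, averaged 12.4 ± 1.62 in R-47 and 0.668 ± 0.108 in R-37 and rose with 4.22, the smallest p of that comparison. Relative to NC, 2 rose and 4 fell in NFS1, with PRKCA at 0.78 and AKT1 at -0.56. SIRT2 and TRIM16 were among those that fell. Relative to R-47, 8 rose and 11 fell in NC, with CRYAB at 1.67 and PRKCA, a protein kinase C gene, at -3.19.

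A list of 23 regulators held transcription factors known to act on VIM or simple keratin genes, and the splicing regulators ESRP1 and ESRP2. Of the 23, 15 were tested. In R-47 against R-37, 3 rose, including ESRP2 with 0.43, and 2 fell. The AP-1 gene FOSL1 was at 0.55 and ZEB1, a repressor of epithelial genes, at -0.33. Relative to NC, 4 rose and 1 fell in NFS1, with SNAI2, also a repressor of epithelial genes, at 1.03 and FOSL1 at -0.25. Between NC and R-47, 7 rose, including ESRP2 with 0.40, and 6 fell. SNAI2 was at 1.17, FOSL1 at 0.84 and the epithelial factor EHF at -3.98.

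Epithelial and mesenchymal genes outside the 7 did not all move with VIM. Of 15 epithelial genes, 5 of 12 tested rose and 1 fell in R-47 against R-37, with ST14 at 1.40. Between NFS1 and NC, 1 of 11 rose, SPINT1 with 1.31, and 3 fell, with CLDN1 at -1.23. Between NC and R-47, 4 of 12 rose and 6 fell, with CLDN7 at 2.16, CDH1, the E-cadherin gene, at -2.21 and SPINT1 at -5.63.

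Of 15 mesenchymal genes, 10 were tested. In R-47 against R-37, 0 rose and 6 fell, and the fibronectin gene FN1 averaged 840 ± 46.8 in R-47 and 1445 ± 97.1 in R-37. In NFS1 against NC, where VIM fell, 6 rose and 0 fell, with TNC at 1.60 and FN1 at 0.74. In NC against R-47, where VIM rose 21.2-fold, 3 rose and 6 fell with a median of -1.66. LOX rose there with 4.43, whereas FN1 averaged 75.2 ± 7.31 in NC and 840 ± 46.8 in R-47 and fell with -3.47.

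Marker sums of other cell types moved between groups too. The fibroblast and stellate list summed to 37.1 to 58.7 CPM in NFS1 and 24.96 to 30.6 in NC, and to 19.5 to 23.5 in R-47 and 21.0 to 30.7 in R-37. The leukocyte list summed to 131 to 152 in NFS1 and 120 to 129 in NC, and to 156 to 201 in R-47 and 83.2 to 93.9 in R-37. The endothelial list summed to 51.8 to 58.3 in NFS1, 56.1 to 70.0 in NC, 70.0 to 79.2 in R-47 and 66.3 to 78.3 in R-37. The cholangiocyte list without the keratins summed to 385 to 420 in NFS1, 411 to 449 in NC, 407 to 447 in R-47 and 491 to 507 in R-37. Their part in the results was not tested.

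Genes of like pattern were ranked by Pearson correlation over the 20 libraries among 10674 genes, as a description. The libraries fall into 2 clusters, the experiments, so any gene that differs between these ranks high. Nearest to VIM were MMP1 (r = 0.997), PSMD11, COL4A5, MCM4 and GATA6. MMP1, an interstitial collagenase gene, averaged 50.3 in NFS1, 84.8 in NC, 1.19 in R-47 and 1.26 in R-37. Nearest to KRT7 were ALDH3B1, WDR45 and TIMP1, and nearest to KRT80 were ALDH3B1, IFITM10 and WDR45. ALDH3B1 averaged 11.98 in NFS1, 13.0 in NC, 36.4 in R-47 and 27.8 in R-37. Nearest to KRT8 were CNDP2, ARPC1B and HM13, nearest to KRT18 were EIF3K, ARPC1B and TRAP1, and nearest to KRT19 were POU2AF1 (r = 0.998), PITPNM3 and ZDHHC5.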

How the data were processed

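The authors deposited a table of whole-number counts per gene symbol, not normalised, and a table of FPKM for the same 20 libraries. The tools named are HISAT2, HTSeq and fastp, and the build hg38, per the submitters' processing notes. Their versions and settings are not given in the sources used. Libraries were grouped by their titles.

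The count tests used edgeR 4.0.16 (glmQLFit, glmQLFTest) in R 4.3.3 on the 2 groups of each comparison, with filterByExpr at a minimum count of 10, TMM scaling and Benjamini-Hochberg adjustment over all tested genes. Levels divide TMM-scaled CPM by the gene length that the deposited counts and FPKM imply. Ratios of KRT23 counts carry exact binomial intervals. Alternatives used DESeq2 1.42.0, limma 3.58.1, other scalings and filters, limma on log2(FPKM + 1) and log2(FPKM + 0.1), leaving out each library, and a block for the replicate number.

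The 7 genes and all lists were chosen with earlier results of these data known. Lists were named by the 2 highest and 2 lowest called members, and some are left out here. One marker gene is not reported here. MMP1 and other genes of like pattern were the 5 nearest to VIM and the 3 nearest to each keratin. Gene positions matched 93.9% of symbols. GENCODE release 29 gave the sequences.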

Additional observations from a re-analysis of the deposited data

Results flagged for a closer look

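In each group of 5 libraries, the highest and lowest values of the 7 genes and of their ratios and shares were compared with the nearest other library, over 78 sets of values. A gap of more than 0.71 of the whole range was marked, which chance alone does in about 1 in 20 sets. That would be about 3.9 of the 78, and 4 were marked.

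In NFS1 library 4, which differed from its group over all genes as well, the ratio of KRT18 to VIM was 7.81, where the next library had 9.03, and VIM gave 4.14% of the summed level of the 7 genes there, where the next library had 3.62%. Its KRT8 level, 1198, was the lowest of the group and its VIM level, 78.5, was the middle one. KRT23 was seen in NC library 2 alone, at 0.0105 TMM-scaled FPKM, which is 1 count, and it gave 0.000392% of the summed level there. The other NC libraries had 0, which fixes both KRT23 marks.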

How the results depend on the processing

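VIM, KRT7, KRT8, KRT18, KRT19 and KRT80 kept their direction and their call in NC against R-47 under all 22 alternatives, as did KRT7 and KRT80 in R-47 against R-37. In NFS1 against NC, VIM and KRT8 did so under all 24.

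Members called lower in NFS1 against NC numbered 4, and 2 with limma on log2(FPKM + 1) without a filter and without NFS1 libraries 2 and 3 (chosen after seeing the data). They numbered 3 to 4 with 1 library left out, and 4 without NC library 1 and NFS1 library 4, where 2955 genes were called higher and 2604 lower. Members called lower in R-47 against R-37 numbered 0, and 3 with length and GC offsets, also added later, and 0 to 1 with 1 library left out. The cause was not tested.

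Genes called higher in R-47 against R-37 numbered 1714, against 2977 with library size alone and 2608 with limma on log2(FPKM + 1) without a filter. Genes called lower there numbered 1890, against 1013 with library size alone, 839, 841 and 827 with limma on log2(FPKM + 1), log2(FPKM + 0.1) and no filter, and 2836 with the offsets. NFS1 against NC had 1881 lower, against 3156 with the offsets and 1147 without NFS1 libraries 2 and 3. In NC against R-47, 5978 were lower, against 3741 and 3734 with limma on log2(FPKM + 1) and log2(FPKM + 0.1). Library size alone moved the share of calls that were higher to 74.6% in R-47 against R-37, where it was 47.6%, and to 61.2% in NC against R-47, where it was 50.3%, with a median shift of 0.18. The offsets gave 41.7% in NFS1 against NC, where it was 55.7%.

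Signs turned in R-47 against R-37 for genes that were not called. VIM was 0.037 with library size alone, 0.031, 0.037 and 0.031 with the 3 limma fits on FPKM, and -0.072 to 0.0122 with 1 library left out. KRT18 was 0.0017 with library size alone and 0.0069 with each limma fit on FPKM. KRT19 was 0.0024 with DESeq2 size factors, 0.074 with library size alone, 0.011 at a minimum count of 50, 0.00704 with limma-voom, 0.083 with each limma fit on FPKM, and -0.0595 to 0.0433 with 1 library left out.

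Same-numbered libraries did not deviate together (correlations -0.38 to 0.27). Libraries of unlike numbers reached 0.65, NFS1 library 4 with NC library 1. Such correlations cannot show whether the numbers pair the libraries, because differences between single libraries also enter them. With the replicate number as a block, 1438 genes rose and 1490 fell in R-47 against R-37, 1733 and 1335 in NFS1 against NC, and 6073 and 6031 in NC against R-47, the members' counts were 2, 4 and 6, and KRT19 in R-47 against R-37 was 0.0067. Depth limited KRT23, which was tested only without the filter on low counts, and was then called lower in NC against R-47 by all 3 fits, which made 6 members lower in place of 5.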
